A study of Mus musculus with 2 samples.

Results

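Retinoic acid, the active form of vitamin A, reaches its nuclear receptors with the help of small cytosolic binding proteins, CRABP1 and CRABP2. The retinoic acid receptors (Rara, Rarb, Rarg) pair with the retinoid X receptors (Rxra, Rxrb, Rxrg) on DNA and switch target genes on or off, and Tgm2, tissue transglutaminase, is a classic target in several cell types. In T cells, retinoic acid made by gut dendritic cells is known for imprinting gut homing and for favouring regulatory over inflammatory fates. These 9 genes were looked up by gene symbol in the platform annotation of both chips of the Affymetrix Mu11k set, called subA and subB. Only probe sets annotated with 1 symbol were searched. Of the 9 genes, 7 had at least 1 probe set, and 9 of 13179 probe sets were theirs, 4 on subA and 5 on subB. No probe set annotated with 1 symbol carries Rara or Rarb, so both are not analysed here. No member had a probe set on both chips. The genes were chosen with their values on these arrays known, so their differences are given as a description and without a test.

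The RNA came from purified CD4+ T cells of the spleen and lymph node. The donors were female B10.PL mice whose T-cell receptor, encoded by a transgene, recognises Ac1-11, a peptide of myelin basic protein (MBP). The series asks how expression after stimulation with 4Y, which the labels name without describing it, differs from that after Ac1-11, and the labels give a time of 48 h. Every cell compared carried the transgene, and the labels do not say how many mice were pooled. Per chip there is 1 array whose levels were deposited and 1 table that sets it against a baseline array. There is no replicate, so the differences carry no p-value, and their precision is limited by the number of arrays. The sample label of the deposited array is Ac1-11, while the authors' deposited table gives the very same levels, without exception among 6584 probe sets of subA and 6595 of subB, to an experiment named 4Y. The direction between the stimuli is therefore not settled. The arrays are called the deposited array (4Y by the table, Ac1-11 by the sample label) and the baseline array. Every fold below is deposited over baseline. On either chip it reads the other way round between 4Y and Ac1-11 if the sample label is the right one for that chip. Which name is right need not be the same on both chips, and this was not tested. In the authors' deposited table the same probe set of the cytokine gene Csf2 was 24.8-fold lower on subA and 10.8-fold higher on subB.

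Levels are average differences, the mean brightness of perfect match minus mismatch probes, which can fall below 0. A probe set was taken as detected when the deposited array was called present or the baseline was not marked absent. Leaving out controls, subA had 3343 detected probe sets among 6529 (51.2%), and subB had 1813 among 6540 (27.7%). A detected probe set was counted if its fold in the authors' deposited table was 2 or more either way and its difference call was increase or decrease. By this rule 4.46% of those detected on subA and 6.23% on subB changed, and the median log2 fold of detected probe sets was 0 on both. Where a gene had 2 detected probe sets, the SD of their log2 folds was 0.46 over 251 genes of subA and 0.62 over 51 genes of subB. Of the 4 member probe sets on subA, Crabp2 counted as lower and Tgm2 as higher, against 2.69% of detected probe sets counted as lower and 1.76% as higher. On subB 0 of the 5 member probe sets were detected, so by this rule none could count, and the shares of detected probe sets there (4.25% higher, 1.99% lower) have no bearing on them.

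**Figure D1:**
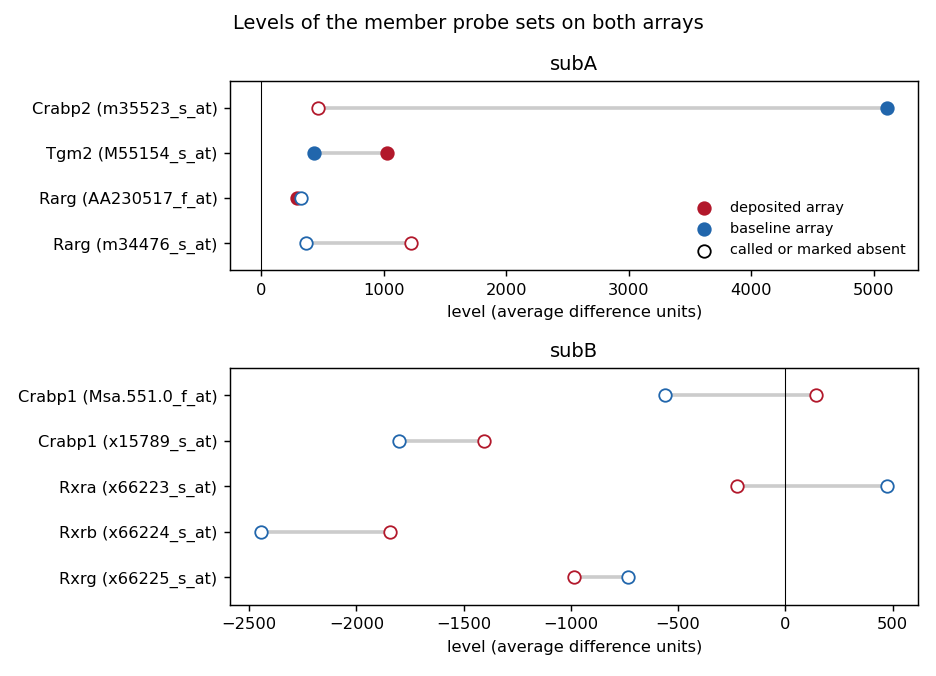
Levels of the 9 member probe sets in average difference units (horizontal axis, linear, one scale per chip) on the deposited array (red) and the baseline array (blue). Open circles are levels called or marked absent. Crabp2 stands at 464 on the deposited and 5108 on the baseline array, and all 10 levels on subB are absent.

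Among the member probe sets of subA, that of Crabp2, which carries retinoic acid to its receptors in the nucleus, had by far the widest gap between the arrays. Its probe set m35523_s_at read 464 on the deposited array of subA, against 5108 on the baseline array. The baseline level lay at percentile 93.6 of the chip, that is among its brighter probe sets, while the deposited level lay at percentile 55.9 and was called absent. In the authors' deposited table Crabp2 was 11-fold lower on the deposited array with a call of decrease, a log2 fold of -3.46. Because the lower level was called absent, it was not told from background, and the size of the fold is uncertain. The difference ran through the whole probe set. In the authors' deposited table all 20 of its 20 probe pairs were scored as decreased and 0 as increased, which held for 5 of 6529 probe sets on this chip (0.0766%). The number of its probe pairs with perfect match clearly above mismatch was 7 on the deposited array and 19 on the baseline array, and the number of the opposite kind was 3 on the deposited and 0 on the baseline array. Even so, 464 was not a dim value among absent probe sets, whose median on the deposited array was 63.5, and 503 of the 3496 absent probe sets were brighter.

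The probe sets whose levels on both subA arrays were most like those of Crabp2 were those of Sema7a, Olr1 and Csf2. Likeness was the distance between log2 levels over the 2 arrays, with levels under 100 set to 100, among 322 named probe sets of other genes with a difference call. The nearest was Sema7a, which encodes a membrane-anchored semaphorin, at a distance of 0.43 and with levels of 566 on the deposited and 6374 on the baseline array. Olr1, a receptor for oxidised low-density lipoprotein, followed at 0.63 with 472 on the deposited and 3292 on the baseline array. Next came Csf2, which encodes the cytokine GM-CSF, at 0.93 with 251 on the deposited and 6226 on the baseline array. Csf2 ran the other way on subB. In the authors' deposited table for subA its probe set GMCSF_at was 24.8-fold lower with a call of decrease and 19 of 20 probe pairs decreased. In that for subB the same probe set was 10.8-fold higher with a call of increase and 16 of 20 increased, at 6216 on the deposited and -858 on the baseline array, where it was marked absent. Crabp2 has no probe set on subB, so its own difference could not be set against the other chip. With 2 arrays such closeness says only that the probe sets had like levels on each of them.

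Crabp1, which encodes the other cytosolic binding protein and is known for keeping retinoic acid in the cytosol, was read by 2 probe sets, both on subB and both absent on both arrays. The first had a level of 142 on the deposited array, against -559 on the baseline array. The other, x15789_s_at, had -1403 on the deposited and -1801 on the baseline array. Neither level can be told from background, and the authors' deposited table scored 6 and 2 of 20 probe pairs as increased and 2 and 3 as decreased, with no difference call. Their approximate folds of 2.7 and 2.0 in that table rest on absent levels, most of them below 0. A difference between Crabp1 and Crabp2 in response could not be looked at, since the level of Crabp1 was not detectable and the genes sit on different chips.

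**Figure D2:**
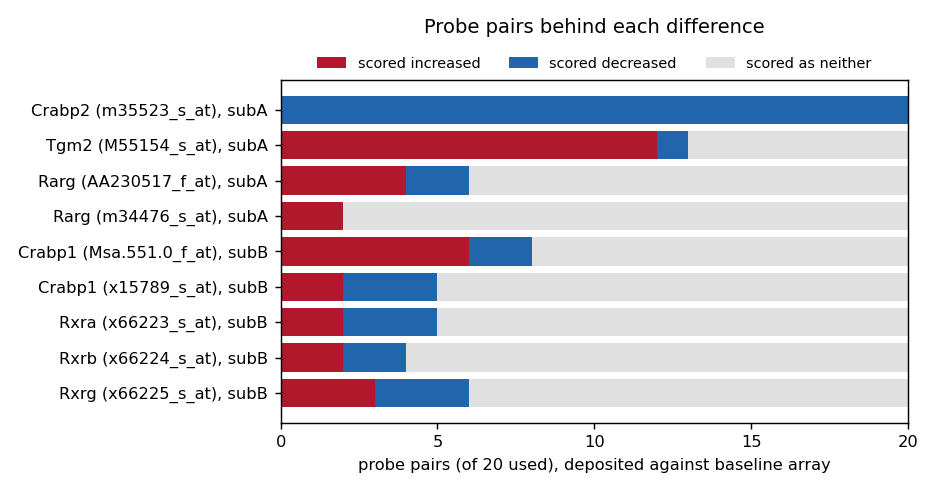
Probe pairs of each member probe set scored in the authors' deposited table as increased, decreased or neither (horizontal axis, number of 20 pairs used, deposited against baseline array). Crabp2 has 20 of 20 pairs decreased, Tgm2 has 12 increased and 1 decreased, and no other member has more than 6 pairs increased or 3 decreased.

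The receptors act through short direct repeats in DNA, and promoter stretches are shown here because they hold or lack the letters that these receptors bind. The RefSeq promoter windows of GRCm38.p6, 250 bases before to 50 after each start, were searched on both strands for the receptors' core hexamer, spelled AGGTCA or as its variant AGTTCA, as the variant GGTTCA or as the variant GGGTCA, with overlaps allowed. The search covered 14 windows of 7 of the 9 genes, and Crabp2 and Tgm2 were not analysed in this way. A hexamer by itself was common, in 43.7% of all 32851 windows and in 7 of the 14. A direct repeat of hexamers with a spacer of 5 bases was found in 0.0974% of all windows, with a spacer of 2 in 0.268% and of 1 in 0.222%. Among the members it was found once, with the 5-base spacer, in the window of Rarb, starting 53 bases before the start. Below, capitals mark the hexamers on either strand, each line running 5′ to 3′ on the minus strand, which is the strand of all 3 genes. Rarb carries the repeat, Rarg is the receptor with a detected probe set, and Itgb7, described further on, is the retinoid-responsive gene that counted as changed.
Rarb, chr14:16575473-16575569: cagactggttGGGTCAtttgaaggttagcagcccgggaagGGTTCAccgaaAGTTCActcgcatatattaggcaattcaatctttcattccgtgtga
Rarg, chr15:102257702-102257772: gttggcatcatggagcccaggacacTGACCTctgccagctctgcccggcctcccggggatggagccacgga
Itgb7, chr15:102232036-102232121: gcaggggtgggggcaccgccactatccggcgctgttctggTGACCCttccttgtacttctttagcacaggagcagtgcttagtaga
The Rarg window shown and that of Itgb7 each hold 1 hexamer and no repeat, and a second window of Rarg, chr15:102246451-102246750, holds 0 hexamers. A match is a run of letters and not a measured binding site.

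Rarg, the retinoic acid receptor gamma, was the only one of the 4 retinoid receptors measured that had a detected probe set, and its 2 probe sets on subA did not give the same picture. AA230517_f_at had a level of 293 on the deposited array, where it was called present, against 325 on the baseline array, where it was marked absent. The authors' deposited table gives it as 1.1-fold lower and without a call, 4 of its 20 probe pairs being increased and 2 decreased. The levels on both arrays were therefore close to each other and, at percentiles 47.0 and 48.7 of the chip, near its middle. The other, m34476_s_at, had a level of 1224 on the deposited array and 363 on the baseline array, both absent. The authors' deposited table gives it as 3.4-fold higher, but with only 2 of 20 probe pairs increased, 0 decreased and 18 scored as neither, and with no difference call. Its level of 1224 on the deposited array exceeded that of 97.3% of absent probe sets there, while perfect match stood clearly above mismatch in 7 pairs on each array. The log2 folds were -0.14 and 1.77, and no difference was taken from them. The SD of 0.46 came from genes with 2 detected probe sets, so it does not measure the spread of this pair. The ending _f_at marks in Affymetrix naming a probe set that can match several related sequences, so the present call of AA230517_f_at may not be that of Rarg alone.

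The retinoid X receptors, shared partners of many nuclear receptors, were not detectable on either subB array. Rxra had a level of -223 on the deposited array and 475 on the baseline array. Rxrb had -1845 on the deposited and -2443 on the baseline array, and Rxrg had -987 on the deposited and -733 on the baseline array. All 6 levels were absent and 5 of them lay below 0. In the authors' deposited table the 3 receptors had 2 or 3 of 20 probe pairs scored as increased and 2 or 3 as decreased, so no direction stood out. Their approximate folds of 2.7 lower, 2.4 higher and 1.6 lower amount to 1 plus the size of the change over a noise value between 411 and 427 units, near the chip's median of 415 for such folds. An absent call shows only that the signal was not told from mismatch background on this chip, where 35.4% of levels lay below 0, and not that the receptor was missing from the cells.

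**Figure D3:**
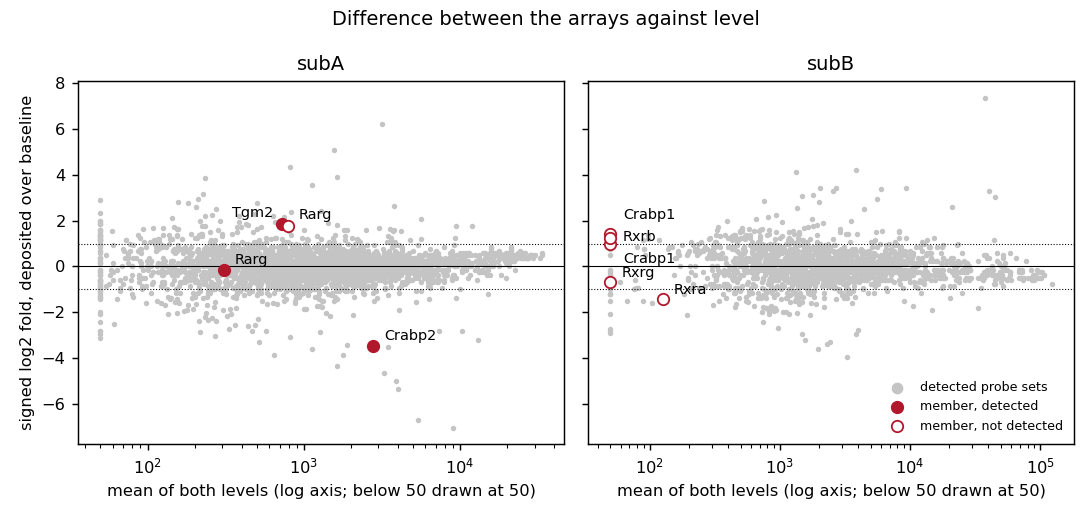
Signed log2 fold (vertical axis, deposited over baseline) against the mean of both levels (horizontal axis, log scale, average difference units) for detected probe sets (grey) and members (red, open where not detected) on each chip. Dotted lines mark a fold of 2. Crabp2 lies at -3.46, Tgm2 at 1.85, and the 5 subB members sit at the low end of the level axis.

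Tgm2, which crosslinks proteins and is known as a gene switched on by retinoic acid in macrophages and other cells, counted as higher. Its probe set M55154_s_at read 1029 on the deposited array of subA, against 428 on the baseline array, and neither was absent. In the authors' deposited table Tgm2 was 3.6-fold higher with a call of increase, a log2 fold of 1.85. The ratio of the 2 levels is smaller, 2.40, a log2 value of 1.27. Of detected exact folds on subA, 94.9% could be recomputed from the levels within 0.15 on the log2 scale, and that of Tgm2 is among the rest. Of its 20 probe pairs, the authors' deposited table has 12 scored as increased and 1 as decreased, and 38 of 6529 probe sets on this chip (0.582%) had 12 or more increased. The number of its pairs with perfect match clearly above mismatch was 13 on the deposited and 8 on the baseline array. Tgm2 and Crabp2 thus differed between the same pair of arrays in opposite directions, and this holds whichever stimulus each array stands for.

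The probe sets with levels most like those of Tgm2 were those of Arg1, Creg1 and Fgl2. Arg1, the arginase that marks alternatively activated macrophages, lay at a distance of 0.17 with a level of 934 on the deposited and 398 on the baseline array, and the authors' deposited table gives it as 2.4-fold higher with 11 of 20 probe pairs increased. Creg1, which encodes a secreted glycoprotein, lay at 0.19 with 983 on the deposited and 483 on the baseline array. Fgl2, a fibrinogen-like protein made by macrophages and T cells, lay at 0.23 with 1198 on the deposited and 411 on the baseline array. Beside these values, the macrophage marker list had 4 probe sets on subA, of which Lyz2 and Cd68 were detected, and its summed level was 6221 on the deposited and 3339 on the baseline array. Lyz2, the lysozyme of macrophages and granulocytes, made up most of it with 5294 on the deposited and 2286 on the baseline array, a ratio of 2.32. The authors' deposited table gives Lyz2 as 6.2-fold higher without a difference call, so here too the deposited fold is well above the ratio of the levels. Cd68 had 633 on the deposited and 707 on the baseline array, where it was marked absent. On subB the macrophage list's summed level was 1977 on the deposited and 3219 on the baseline array, 1 of its 4 probe sets (Cd14) was detected, and the defining receptors Csf1r and Adgre1 were below 0 on both. The sums of subA and subB cannot be set against each other for direction, since Csf2 ran in opposite directions on these chips. The part of other cell types in the level of Tgm2 was not tested. In such bulk RNA, more cells of a type and more RNA per cell cannot be told apart.

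The CD4+ T cell label was borne out by its markers. All 4 T-cell marker probe sets on subA and all 7 on subB were detected, and their summed level was 17949 on the deposited and 16134 on the baseline array of subA, and 111763 on the deposited and 141668 on the baseline array of subB. Cd4 itself had 19607 on the deposited and 28344 on the baseline array, while Cd8a, of cytotoxic T cells, was below 0 on both. Of the T-cell markers on subB, Cd3g counted as lower, with 4317 on the deposited and 9078 on the baseline array. Zap70 counted as higher there, with 9022 on the deposited and 4879 on the baseline array. Of the 7 on subB, 5 had a fold lower and 2 a fold higher. Cd3d and Cd4 also had a call of decrease there, with folds of 1.8 and 1.4 lower, too small to count. Of the B-cell list, subA had 4 of 11 probe sets detected and subB 1 of 4. Its summed level was 6485 on the deposited and 7741 on the baseline array of subA, and 2820 on the deposited and 2118 on the baseline array of subB. The dendritic cell list (3 of 3 detected, on subA) summed to 761 on the deposited and 1758 on the baseline array, and the stromal and endothelial list (4 of 7 on subA, 0 of 7 on subB) to 1414 on the deposited and 666 on the baseline array of subA. Of the latter, Cdh5 counted as higher on subA by 1 probe set, at low levels of 43 on the deposited and -84 on the baseline array. Its other probe set on subA was absent on both arrays. Sums take levels below 0 as 0, and those of subA and subB are not joined into a direction. No probe set of the natural killer, epithelial or mast cell lists was detected on either chip.

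Around the members, 6 lists of 129 other genes of retinoid handling, nuclear receptor action, lipid binding and retinoid response were followed. On subA they had 61 probe sets of 53 genes, of which 19 were detected, 1 counted as higher (Itgb7) and 1 as lower (Hdac2). Of all detected probe sets on subA, 1.76% counted as higher and 2.69% as lower. The median log2 fold of the 19 was 0.14, against 0 for all detected probe sets. On subB they had 31 probe sets of 27 genes, of which 8 were detected and 0 counted, with a median of -0.14 against 0. Of all detected probe sets on subB 6.23% counted, so 0 of 8 does not set the lists apart from the chip.

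Among the retinoid-responsive genes, Itgb7 stood out. It encodes the beta 7 integrin chain, which with the alpha 4 chain forms the gut-homing receptor that retinoic acid is known to raise on T cells. It read 17872 on the deposited array of subA, against 5878 on the baseline array, and the authors' deposited table gives it as 3.4-fold higher with 18 of 20 probe pairs increased and 0 decreased. Itga4, the alpha 4 chain, had 672 on the deposited and 368 on the baseline array, 1.8-fold higher in the authors' deposited table without a difference call. Its 2 probe sets on subB were absent. Of the other detected members on subA, Btg2, an antiproliferative gene, had a fold of 1.7 higher, and the transcription factor genes Ets1 and Bhlhe40 folds of 1.4 and 1.7 lower, none with a call in the authors' deposited table. The list's median was 0.77 on subA (5 of 11 probe sets detected) and 0.53 on subB (4 of 8). These medians do not give a shared direction, since Ets1 and Bhlhe40, detected on both chips, had folds of opposite sign on them. On subB Bhlhe40 had 9255 on the deposited and 5678 on the baseline array, Ets1 had 2440 on the deposited and 1491 on the baseline array, and the homeobox gene Hoxb1 had 1100 on the deposited and 765 on the baseline array, all without a call. These baseline levels of Ets1 and Hoxb1 were marked absent. Another Hoxb1 probe set on subB, absent on both arrays, had -92 on the deposited and 322 on the baseline array. Also on subB, Icam1, an adhesion molecule, had 676 on the deposited and 2116 on the baseline array, 3.1-fold lower in the authors' deposited table but with 3 of 20 probe pairs decreased, 1 increased and no call.

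Of the coregulators that receptors recruit, 9 of 13 probe sets were detected on subA, with a median log2 fold of -0.26, and 0 of 4 on subB. Hdac2, a histone deacetylase of corepressor complexes, counted as lower, with 495 on the deposited and 1046 on the baseline array, 2.1-fold lower in the authors' deposited table with 9 of 20 probe pairs decreased and 0 increased. The related Hdac1 had 1369 on the deposited and 1615 on the baseline array. The corepressor Trim28 had 3780 on the deposited and 5749 on the baseline array, and neither had a difference call. Pml, which is fused to RARA in promyelocytic leukaemia, had 2410 on the deposited and 2282 on the baseline array, and the coactivator Ncoa4 had 1283 on the deposited and 1016 on the baseline array. Neither of these had a difference call. Ncoa3, named because its value was seen, lies farthest from 0 in this list with an approximate 5.2-fold decrease in the authors' deposited table. Its levels were low, 86 on the deposited and 465 on the baseline array, where it was marked absent. Of its 20 probe pairs 4 were decreased, and there was no call.

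Of the genes that supply and break down retinoids, 2 of 8 probe sets were detected on subA, with a median log2 fold of 0.36. On subB 2 of 5 were detected, with a median of -0.63, and none on either chip counted. Of all probe sets but controls, 51.2% were detected on subA and 27.7% on subB. With so few probe sets, the list is not set apart from the chips. Adh5, an alcohol dehydrogenase, had 2772 on the deposited and 1815 on the baseline array of subA, and 1578 on the deposited and 2127 on the baseline array of subB. Ttr, the plasma carrier of retinol-binding protein, had 164 on the deposited and 150 on the baseline array. Fabp5, which can carry retinoic acid to another nuclear receptor and was the only detected gene of the lipid-binding list (0 of 7 probe sets on subA, 1 of 1 on subB), had 2272 on the deposited and 3592 on the baseline array. Aldh1a2, the enzyme that makes retinoic acid in gut dendritic cells, was below 0 on both subB arrays. Of the other nuclear receptors, 3 of 19 probe sets on subA (median 0.14) and 2 of 14 on subB (median -0.14) were detected. Among them were Pparg, with 778 on the deposited and 634 on the baseline array, Nr2f6, with 542 on the deposited and 499 on the baseline array, and Nr6a1, with 51 on the deposited and 70 on the baseline array. On subB Nr4a1, an immediate early gene of T-cell activation, had 3375 on the deposited and 3811 on the baseline array, and Pgr, the progesterone receptor, had 695 on the deposited and 789 on the baseline array. The baseline levels of Ttr, Nr6a1, Nr4a1 and Pgr were marked absent. Of the transglutaminase relatives of Tgm2, 0 of 3 probe sets on subA were detected, and the list had none on subB.

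**Figure D4:**
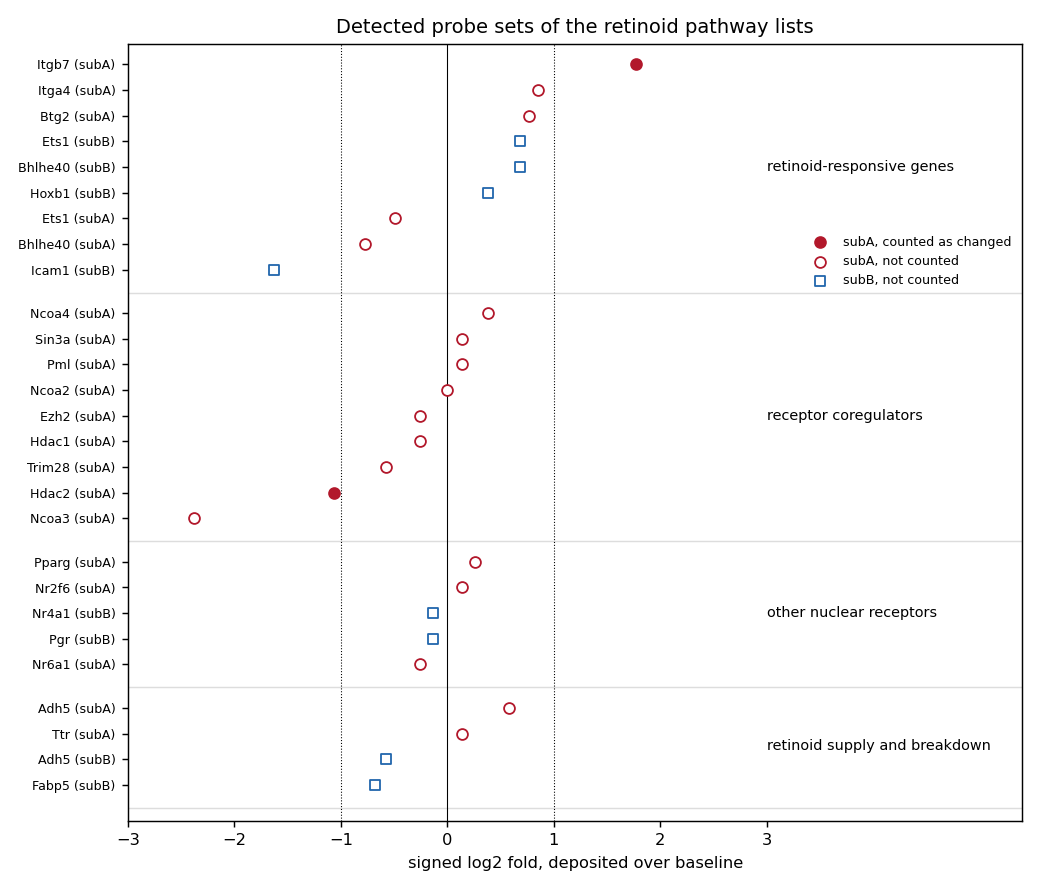
Signed log2 fold (horizontal axis, deposited over baseline) of each detected probe set of the retinoid pathway lists, grouped by list, with circles for subA and squares for subB. Dotted lines mark a fold of 2, and filled symbols counted as changed. Itgb7 at 1.77 and Hdac2 at -1.07 are the filled points.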

How the data were processed

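The levels are array intensity values that the authors deposited per probe set, as average differences of perfect match and mismatch probes. Folds, calls and numbers of probe pairs were taken from the authors' comparison of 2 arrays, whose columns, per the file headers, are those of Affymetrix software. Software version, scaling and noise settings are not given in the sources used here. The baseline level was computed as level minus deposited change. Folds marked approximate were kept (2330 on subA, 4106 on subB). Symbols came from the platform annotation through Entrez IDs. On subA 5560 probe sets had 1 symbol, 197 several and 827 none, and on subB 2001, 27 and 4567. The 55 controls of each chip were left out, and columns of other samples numbered 0. The members, lists and rules were chosen with earlier results of these data known. Named genes are all members and the 3 nearest probe sets of each changed member. Of each retinoid pathway list they are the changed members and up to 4 bright others. Marker lists are given as sums and with their changed probe sets, and any other gene named was picked after its values were seen. The counting rule was run on simulated data in which all probe sets were set as detected and the difference call was set from the planted fold. That run checked only the counting, and not how the rule deals with real calls or absent levels. Alternatives were other fold thresholds, call and detection rules, folds recomputed over floors of 20 and 100 units and median centring. Python 3.11.15 was used with pandas 2.3.3, NumPy 2.4.6 and matplotlib 3.10.9.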

Additional observations from a re-analysis of the deposited data

How the results depend on the processing

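No paired analysis was possible because each chip has 1 array pair and no result comes from a test, and no array could be left out. With presence required on both arrays, the changed members on subA numbered 1 (Tgm2) in place of 2, since the deposited level of Crabp2 was absent, and changed probe sets numbered 92 on subA (149 as reported) and 48 on subB (113 as reported). A threshold of 3 gave 66 on subA, 46 on subB and 1 retinoid pathway gene on subA (Itgb7) in place of 2, and one of 1.5 gave 235 on subA. Without a difference call there were 383 on subA and 275 on subB, and 1 retinoid pathway probe set on subB (Icam1) in place of 0. Without a presence call subB had 176, and without approximate folds 66. The other counts stayed within 1.5 times. The count of 0 changed members on subB could not move, since none was detected or had a difference call and each alternative drops 1 of these conditions at most. Over floors of 20 and 100 units the log2 fold of Crabp2 was -3.46 and that of Tgm2 1.27. No called member changed direction under these settings or median centring, and none could. The levels of Crabp2 and Tgm2 lie above both floors on both arrays, and the median log2 fold taken off was 0.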

Other observations

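Of the retinoid pathway genes, 3 were detected on both chips, Adh5, Ets1 and Bhlhe40, and all 3 had folds of opposite sign on the chips in the authors' deposited table, none with a difference call. On subA Adh5 was 1.5-fold higher, Ets1 1.4-fold lower and Bhlhe40 1.7-fold lower. On subB Adh5 was 1.5-fold lower and the other two were each 1.6-fold higher. These genes were singled out after their values were seen. The opposite directions were not limited to small uncalled folds: in the authors' deposited table Csf2, one of the genes nearest to Crabp2, was 24.8-fold lower on subA with a call of decrease, and on subB 10.8-fold higher by the same probe set, with a call of increase, and an approximate 8.4-fold higher by another, also called increased. Values of the members and of the lists on subA and on subB should for this reason not be joined into a single direction.

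Aldh1a1, an enzyme that makes retinoic acid from retinal, was absent on both subA arrays but had a call of marginal decrease in the authors' deposited table, with a level of 108 on the deposited and 527 on the baseline array and 8 of 20 probe pairs decreased against 2 increased. Bcl2, a survival gene of the retinoid-responsive list, was absent on both arrays by each of its 2 probe sets on subA, which had 755 and 126 on the deposited and 201 and 218 on the baseline array.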
